A study of Mus musculus with 10 samples.

Results

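To compare CD4+ T cells that had been put into a host with those a mouse had made itself, the 10 libraries of the series were divided by their genotype labels. The 6 libraries whose label names added CD4+ T cells are called transferred 1 to 6, and the other 4 are called endogenous 1 to 4, so that all 10 of 10 libraries entered the comparison. Each library also carries the label TEST or CONTROL, and this label was kept as a covariate. Per the labels, cells were sorted when mice had terminal tumors, although no tumor or transgene is named for endogenous 3, and were kept in culture for 5 h under stimulation of CD3 and CD28 by antibody, with TSLP, an epithelial cytokine, and IL-2 added, before RNA was extracted. The paper instead calls the sequenced cells freshly sorted, so that whether the levels of cytokine and activation genes are those of cells stimulated in culture depends on which account holds.

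Transferred 1, 2 and 5 are TEST libraries from C57BL/6 K14-TSLP +/tg, TSLPR -/- hosts that received CD4+ T cells of Ly5.1 origin as well as PyMT tumors. K14-TSLP drives TSLP in the skin, PyMT is a viral oncogene that causes breast cancer, and TSLPR is the TSLP receptor. Transferred 1 came from the draining and transferred 2 from the non-draining lymph nodes of the same pool of 4 mice, and transferred 5 came from the non-draining nodes of 2 mice. Transferred 3 (draining nodes, 4 pooled mice) and transferred 4 (draining and non-draining nodes, 1 mouse) are CONTROL libraries from C57BL/6 TSLPR -/- hosts given PyMT tumors and TSLPRKO CD4+ T cells, with no TSLP transgene named. Transferred 6 is a TEST library from 1 Balb/c K14-TSLP +/tg, MMTV-PyMT +/tg, Rag1 -/- mouse, which has no T or B cells of its own and was given CD4+ T cells when it was 4 weeks old. Endogenous 1 (TEST, lymph nodes) and endogenous 2 (CONTROL, spleen) came from C57BL/6 K14-TSLP +/tg, MMTV-PyMT +/tg mice that were TSLPR +/- and TSLPR -/-, respectively. Endogenous 3 (CONTROL) came from the nodes of a Balb/c Rag1 +/- mouse with no transgene named, and endogenous 4 (TEST) from those of a Balb/c K14-TSLP +/tg, MMTV-PyMT +/tg, Rag1 +/- mouse. Each endogenous library is 1 mouse.

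Transfer is therefore not the only difference between the groups. Of the transferred libraries, 5 came from hosts of implanted tumors that kept their own T cells and, per the methods of the study, had been irradiated below the lethal dose, whereas no endogenous library had implanted tumors, and the effects of irradiation, tumor type, time since transfer and transfer itself cannot be told apart. In TSLPR -/- hosts of TSLPRKO cells, donor and host T cells cannot be told apart either. Ages other than the age at transfer into the Rag1 -/- host are not used here.

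Naive CD4+ T cells enter lymph nodes by means of homing receptors such as CCR7, and are kept resting by factors such as the KLF and FOXO families. When few T cells fill a host, transferred cells divide in response to IL-7 and self-peptide and acquire features of memory cells, a process known as homeostatic or lymphopenia-driven proliferation. Activated and memory cells lose the homing receptors, gain receptors for inflamed tissue and divide.

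Levels were deposited as FPKM, fragment numbers corrected for transcript length and for how many fragments mapped in all, and the depth in reads is unknown. Between 12780 and 14259 genes were above 0 in a library. The measures of whole libraries did not separate the groups: genes detected (exact permutation p = 0.743, two-sided), the share of the summed FPKM in 3 ribosomal RNA genes (exact permutation p = 0.129) and the summed FPKM (exact permutation p = 0.19) were tested over the 210 divisions of 10 libraries into 6 and 4, which can give no p below 0.00476. Endogenous 1 stood apart from all others on the first principal component (91.2, against -30.8 to -2.6), and it had a ribosomal RNA share of 1.17% where the others had 10.7% to 26%. Transferred 4 stood nearer to the endogenous libraries than to the other transferred ones on the second component (-46.3, against 9.2 to 44.5 in the transferred and -33.2 to -12 in the endogenous libraries). Part of the results that rest on either library are given with and without it, and other values come from all 10 libraries alone.

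The labels of the TSLP receptor were borne out by Crlf2, which encodes its specific chain. Crlf2 was at 0.15, 0.21 and 0.16 FPKM in the TSLPR-null libraries transferred 3, transferred 4 and endogenous 2. It was at 12.81, 9.7, 7.27 and 6.82 FPKM in transferred 1, 2, 5 and 6, and at 34.85, 3.28 and 5.7 FPKM in endogenous 1, 3 and 4. All libraries held T cell transcripts, with Cd3e at 190.34 FPKM or more and Cd4 at 103.83 FPKM or more, while of the CD8 T cell genes Cd8a reached 1.33 and Cd8b1 5.12 FPKM. Of the genes of other cells, endogenous 1 held the highest levels of the neutrophil genes S100a8 (15.58 FPKM) and S100a9 (15.54 FPKM), the red cell gene Hba-a1 (30.32 FPKM) and the myeloid genes Lyz2 (9.25 FPKM) and Itgam (4.47 FPKM), while Csf1r reached 0.71 and Cd68 7.19 FPKM in any library. The summed level of 8 neutrophil genes was 0 to 14.9 FPKM in transferred and 0 to 39 FPKM in endogenous libraries, and that of 6 red cell genes 0.41 to 7.56 and 0 to 63.4 FPKM. The part of these cells in the differences was not tested. The B cell gene Cd79a was highest in transferred 4, at 11.85 FPKM. Igj, which plasma cells express, was at 32.93 FPKM in endogenous 1 and reached 1.93 FPKM in the others. In libraries of mixed cells, fewer cells of a type and less RNA per cell cannot be told apart.

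With 6 libraries against 4, no single gene passed the threshold, and the leading genes and gene groups are given with their values in each library. Of 10743 genes that reached FPKM 1 in 4 libraries, 0 (0% of genes tested) were called by limma at a Benjamini-Hochberg adjusted p under 0.05, and the smallest adjusted p was 0.277. At an unadjusted p under 0.05, 289 genes were higher (2.69%) and 843 lower (7.85%) in the transferred libraries. All 6 transferred libraries lay above all 4 endogenous ones for 39 genes (0.363%), and below them for 117 genes (1.09%). For a gene unrelated to the groups, 1 of the 210 divisions puts it fully above, a share of 0.00476, and likewise fully below. On this scale the share of genes above was smaller than that and the share below larger. Lack of overlap in a higher gene is therefore a description of its values and not by itself evidence of a difference. The excess of lower genes depended on the scale. The median difference over all genes was -0.13 on the log2(FPKM + 1) scale, on which the model was fitted and which understates the change of weakly expressed genes. When the ribosomal RNA genes were removed and the rest rescaled, the median became 0.14, and 161 genes lay above and 41 below. With TPM, values rescaled to 1 total in each library, the median was 0.03 and the counts were 81 and 59. They were 75 and 97 with median-ratio scaling, 70 and 112 after quantile normalization, 257 and 187 without endogenous 1 and 110 and 382 without transferred 4. Differences below are log2 differences, transferred minus endogenous, with the label as covariate, ± SE from limma (n = 6 and 4), and stand beside a median of -0.13 over all genes. Counts of positive and negative differences in a list stand beside 3940 positive and 6803 negative of all 10743 genes.

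Genes higher in transferred cells were led by Cd160, a receptor of the immunoglobulin family found on activated and cytotoxic lymphocytes (chr3:96798763-96829351, mm10). It ranged from 3.36 through a median of 5.54 to 8.75 FPKM in the transferred libraries, and was at 1.21, 1.95, 2.42 and 1.36 FPKM in endogenous 1 to 4. The groups did not overlap, and the difference was 1.36 ± 0.26 (limma adjusted p = 0.277). Cxcr6, a chemokine receptor of effector and tissue-resident T cells (chr9:123806477-123811754), ranged from 11.43 through 71.1 to 142.63 FPKM in transferred cells, and was at 16.28, 10.77, 7.17 and 16.43 FPKM in endogenous 1 to 4. Transferred 4 alone, at 11.43 FPKM, lay within the endogenous range, and the difference was 1.87 ± 0.36.

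Ccr4, a chemokine receptor of Th2, regulatory and skin-homing T cells (chr9:114490316-114505476, mm10), followed the same pattern. It ranged from 31.93 through 114 to 143.33 FPKM in the transferred libraries and was at 30.17, 33.44, 29.74 and 39.81 FPKM in endogenous 1 to 4. The 31.93 FPKM was again that of transferred 4, and the next transferred library was at 86.99 FPKM (difference 1.34 ± 0.29). Slc15a3, a peptide and histidine transporter of lysosomes, ranged from 2.24 through 19.4 to 41.66 FPKM and was at 6.15, 1.09, 0.12 and 0.68 FPKM in the endogenous libraries. Its difference of 2.59 ± 0.52 was the largest of the genes in this group. Septin11, a cytoskeletal GTPase, and Fnbp1, a membrane-bending adaptor, showed no overlap. Septin11 was at 14.58 to 20.98 FPKM against 6.67 to 10.01 FPKM (1.04 ± 0.21), and Fnbp1 at 112.32 to 179.52 FPKM against 76.46 to 90.29 FPKM (0.82 ± 0.2).

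Other leading genes higher in transferred cells were Ifitm1 (2.12 ± 0.46), an interferon-inducible membrane protein, Adam8 (1.45 ± 0.32), a membrane metalloprotease, Cysltr1 (1.82 ± 0.43), a receptor for cysteinyl leukotrienes, Trpm6 (1.34 ± 0.29), a magnesium channel, and Dnalc1 (1.39 ± 0.31), a dynein light chain. Lars2, a mitochondrial leucyl-tRNA synthetase, was at 52.74 to 105.41 FPKM in transferred and 16.3 to 38.77 FPKM in endogenous libraries without overlap (1.36 ± 0.29). Its lowest value was in endogenous 1, the library with the ribosomal RNA share of 1.17%, and the part of ribosomal RNA in this difference was not tested. The limma adjusted p of each of these genes was between 0.277 and 0.31.

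Genes lower in transferred cells were led by Lbh, a transcription cofactor of the WNT pathway (chr17:72918305-72941946, mm10). It ranged from 24.3 through 31.7 to 41.07 FPKM in transferred cells and was at 94.29, 65.09, 68.16 and 71.52 FPKM in endogenous 1 to 4. The groups did not overlap, and the difference of -1.2 ± 0.21 had the smallest p of all genes (limma adjusted p = 0.277). Trib3, a pseudokinase induced by amino acid stress, was at 0 to 0.81 FPKM in transferred and 1.98 to 3.97 FPKM in endogenous libraries (-1.53 ± 0.29). Sec11a, a signal peptidase subunit, was at 41.86 to 69.69 against 75.19 to 150 FPKM (-1.08 ± 0.21). Akr7a5, an aldehyde reductase, was at 0.45 to 2.11 against 2.61 to 4.71 FPKM (-1.38 ± 0.29). None of these overlapped between the groups.

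Mgst2, a microsomal glutathione transferase that can make leukotriene C4, was at 3.69 to 18.39 FPKM in transferred and 18.93 to 40.22 FPKM in endogenous libraries (-1.78 ± 0.37). Filip1l was at 7.83 to 21.17 against 21.21 to 51.87 FPKM (-1.44 ± 0.31). Both were separated by a narrow gap, since transferred 4 held the 18.39 and the 21.17 FPKM and the other transferred libraries reached 7.28 and 12.73 FPKM. Adk, adenosine kinase (chr14:21052574-21448569), was at 9.55 through 14.8 to 31.64 FPKM in transferred cells and at 169.8, 33.53, 53.51 and 62.5 FPKM in endogenous 1 to 4. Its difference of -2 ± 0.43 became -1.39 without endogenous 1. Khdrbs3, an RNA-binding protein, was at 0.09 to 0.99 against 1.54 to 7.13 FPKM (-1.64 ± 0.36). Ndufa6 of respiratory complex I (-1.61 ± 0.34), Sidt1 (-1.54 ± 0.34), Atp1b1, a sodium pump subunit (-1.54 ± 0.35), Cxx1b (-1.23 ± 0.27) and 2410015M20Rik (-1.07 ± 0.24) were lower on average but overlapped. The levels of 12 of these and later genes are plotted by library.

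**Figure D1:**
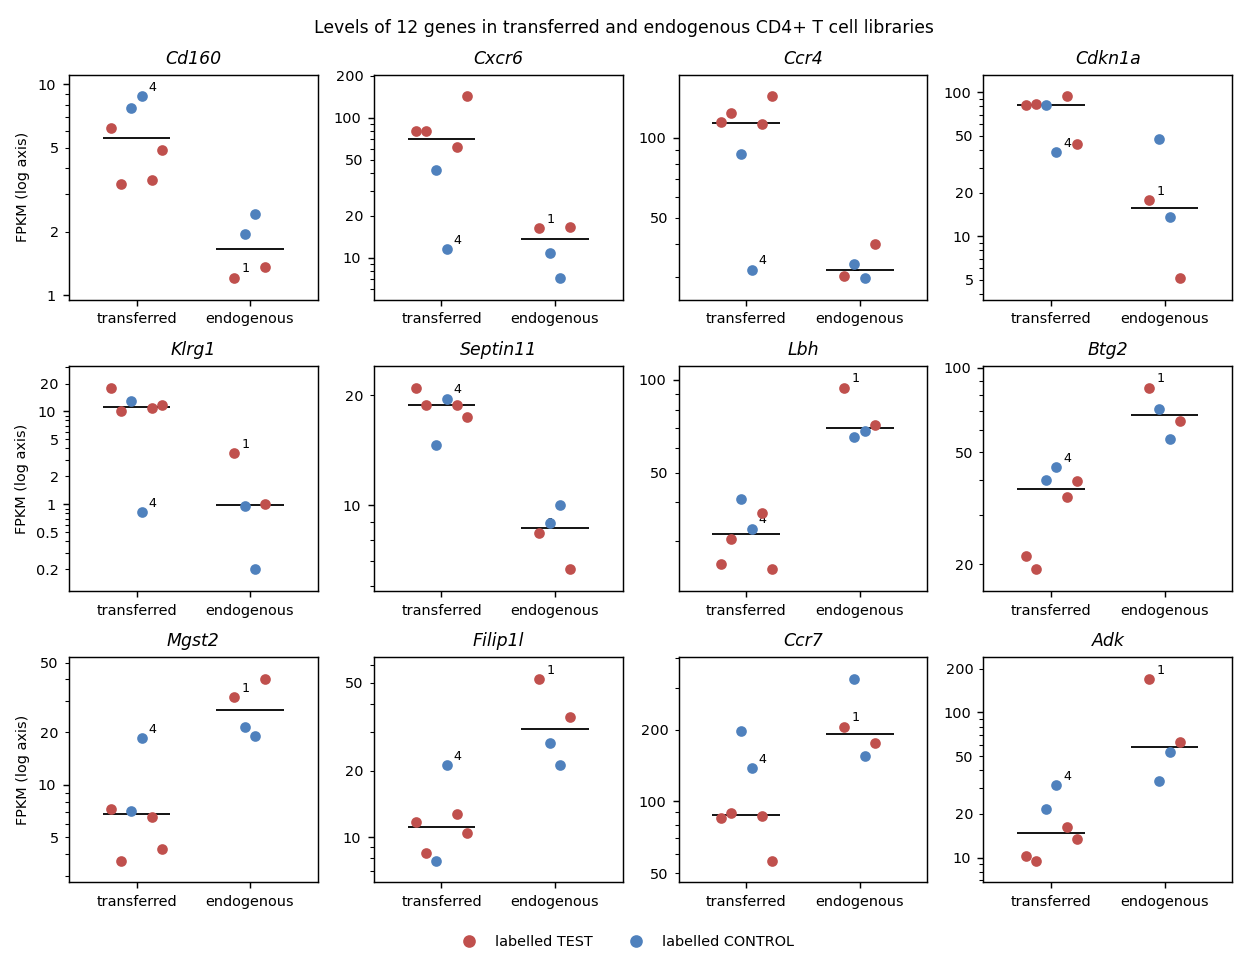
FPKM (log axis) of 12 genes in each transferred (6) and endogenous (4) library, colored by the TEST or CONTROL label, with a line at the group median; the digits 4 and 1 mark transferred 4 and endogenous 1. Cd160, Septin11, Lbh, Btg2, Mgst2, Filip1l and Adk do not overlap between groups, and transferred 4 lies among the endogenous libraries for Cxcr6 (11.43), Ccr4 (31.93) and Klrg1 (0.82).

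The model was also fitted with each library left out in turn, and only without transferred 4 were genes called. Then 15 of 10577 genes (0.142%) passed a limma adjusted p under 0.05, of which 11 were higher and 4 lower in the 5 remaining transferred libraries. A gene at which transferred 4 resembled the endogenous libraries gains in this fit by construction, so that these calls describe the 9 libraries left and are no independent support for a difference. The largest differences were those of Slc15a3 (3.01, adjusted p = 0.0496), Hlf (2.86, adjusted p = 0.0285), a circadian PAR bZIP transcription factor also known from blood stem cells, and Ifitm1 (2.58, adjusted p = 0.0285). Also higher were Ccr4 (1.68, adjusted p = 0.0141), Cxcr6 (2.28, adjusted p = 0.0141), Klrg1 (2.49, adjusted p = 0.0285), an inhibitory lectin receptor of terminally differentiated effector cells, and Il1rl1 (1.98, adjusted p = 0.0496), the IL-33 receptor chain of Th2 and tissue regulatory T cells. The cytokine gene Il9 (2.1, adjusted p = 0.0285), Casp1 (1.43, adjusted p = 0.0285), the inflammasome caspase, Rora (2.03, adjusted p = 0.036), a nuclear receptor of Th17 cells and type 2 innate lymphoid cells, and Osbpl3 (1.77, adjusted p = 0.0496), an oxysterol-binding protein, completed the 11.

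The 4 genes that were lower without transferred 4 were Mgst2 (-2.16, adjusted p = 0.0285), Filip1l (-1.76, adjusted p = 0.0285), the sialyltransferase gene St8sia6 (-1.67, adjusted p = 0.0404) and 1110032F04Rik (-1.68, adjusted p = 0.0404), all in limma. Casp1, Hlf, Osbpl3, St8sia6 and 1110032F04Rik were named after their values were seen. The 15 calls also counted transferred 1 and transferred 2, from the same mice, as separate libraries. With these averaged and transferred 4 left out, 0 genes were called and the smallest limma adjusted p was 0.075.

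The values show where transferred 4 lay. Klrg1 was at 18.05, 10.2, 12.93, 10.84 and 11.65 FPKM in transferred 1, 2, 3, 5 and 6, at 0.82 FPKM in transferred 4, and at 3.57, 0.95, 0.2 and 1.01 FPKM in endogenous 1 to 4. Il9 was at 10.96, 10.02, 2.09, 7.65 and 15.19 FPKM in the 5 transferred libraries, was listed at 0 in transferred 4, endogenous 2 and endogenous 3, and was at 1.22 and 1.38 FPKM in endogenous 1 and 4. St8sia6 was at 6.41 to 12.23 FPKM in the 5, at 44.57 FPKM in transferred 4 and at 19.85 to 48.7 FPKM in endogenous cells. At each of these genes transferred 4 was within the endogenous range. Transferred 4 was a CONTROL library of 1 mouse that joined draining with non-draining nodes, as did 3 of the 4 endogenous libraries and also transferred 6, which was at 11.65 FPKM for Klrg1, 15.19 FPKM for Il9 and 7.53 FPKM for St8sia6. The Cd79a level of transferred 4 was given above, and the part of B cell RNA was not tested.

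Genes of naive cells and of lymph node homing were lower in transferred cells as a group. Of 18 genes in this list, all were tested, all had a negative difference, 11 were lower at an unadjusted p under 0.05 (background 7.85%) and 0 were called by limma. The median was -0.88, beside -0.13 for all genes. With transferred 1 and transferred 2, from the same mice, averaged, 8 were lower at that p and the median was -0.82. Ccr7, a chemokine receptor that guides T cells into lymph nodes, ranged from 56.46 through 88 to 198.11 FPKM in transferred and from 155.43 to 327.27 FPKM in endogenous cells, with transferred 3 as the only overlap (-0.92 ± 0.27, limma adjusted p = 0.336). Dapl1, whose transcript marks naive T cells, was at 0.32 through 4.32 to 9.51 FPKM against 52.2, 24.33, 8.31 and 19.84 FPKM (-2.21 ± 0.57). Txk, a TEC-family kinase (-1.52 ± 0.42), and Treml2 (-1.64 ± 0.45) were lower on average too. Il7r, the IL-7 receptor chain that resting T cells need to survive, was at 55.15 through 73 to 172.63 FPKM and at 110.46, 113.4, 181.09 and 104.15 FPKM, so that the groups overlapped (-0.54 ± 0.33, limma adjusted p = 0.584). Itga6, an integrin chain of naive T cells that was not in this list, was at 8.61 to 54.16 against 43.26 to 65.08 FPKM (-1.26 ± 0.39).

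The mean log2 level of the list per library gave the same order. It was 4.37, 4.44, 5.43, 6.03, 5.04 and 4.21 in transferred 1 to 6 and 6.13, 6.05, 5.81 and 5.91 in endogenous 1 to 4. The 4 transferred TEST libraries and transferred 3 lay below all endogenous ones, and transferred 4 lay among them. The median of the list was -0.95 without transferred 4, -0.62 without endogenous 1 and -0.58 without the ribosomal RNA genes, where 15 of 18 differences were negative and the median of all genes was 0.14.

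Genes of quiescence and anergy, which hold T cells in a resting or unresponsive state, were also lower in part. Of 23 tested, 18 had a negative and 5 a positive difference, 6 were lower at an unadjusted p under 0.05 and 0 were called (median -0.44). Without the ribosomal RNA genes, 13 were negative and 10 positive, and without the pools of 4 mice 13 were negative and 9 positive (median -0.23). Btg2, which restrains proliferation, was at 21.48, 19.25, 39.93, 44.36, 34.79 and 39.53 FPKM in transferred 1 to 6 and at 84.89, 71.31, 55.79 and 64.71 FPKM in endogenous 1 to 4 without overlap (-1.04 ± 0.26, limma adjusted p = 0.31). Txnip, a thioredoxin inhibitor that limits glucose uptake, was at 34.63 to 66.28 against 66.33 to 128.9 FPKM, the groups nearly touching (-0.86 ± 0.25). Cdkn1b, which encodes the cell cycle inhibitor p27 (-0.88 ± 0.25), and Pik3ip1, an inhibitor of PI3 kinase (-1.06 ± 0.37), overlapped.

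**Figure D2:**
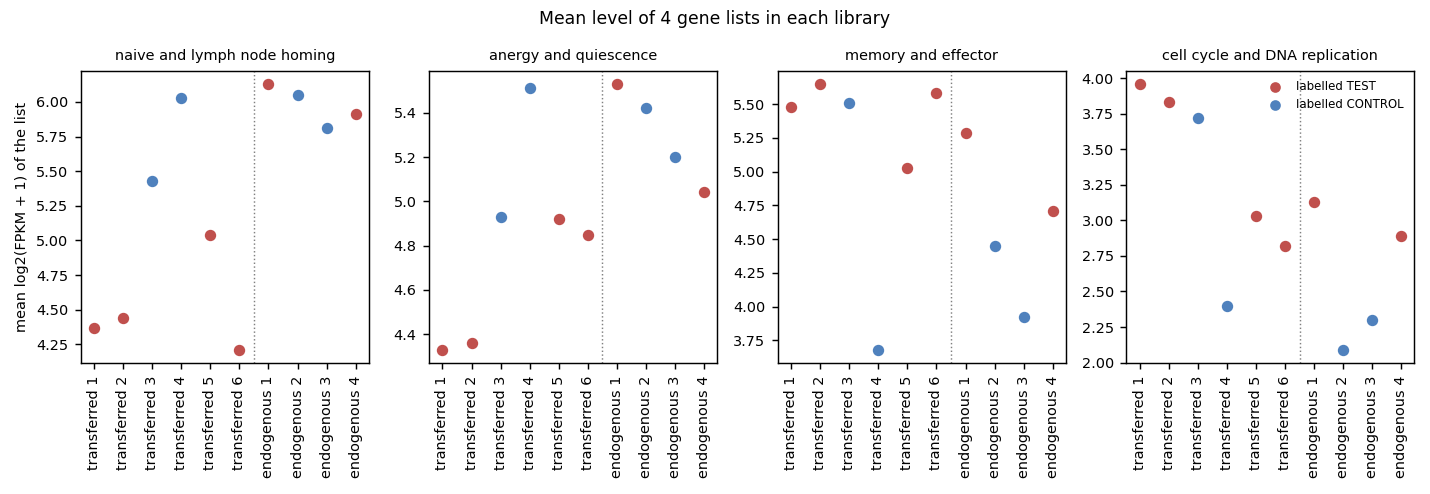
Mean log2(FPKM + 1) of 4 gene lists (vertical axes differ) in each library, colored by the TEST or CONTROL label; the dotted line divides transferred from endogenous libraries. The naive and homing list was at 6.03 in transferred 4 and 5.81 to 6.13 in endogenous libraries, and at 5.43 or less in the other transferred libraries, while the memory list was at 3.68 in transferred 4 and 5.03 to 5.65 in the others transferred.

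Memory and effector genes showed the opposite sign with more scatter. Of 27 tested, 22 had a positive difference, 6 were higher at an unadjusted p under 0.05 (background 2.69%) and 0 were called, with a median of 0.25. Without transferred 4, 25 were positive, 11 were higher at that p and 2, Klrg1 and Rora, were called by limma (median 0.46). Without transferred 3, only 13 of 27 were positive and the median was -0.04, and without the 3 pools of 4 mice (transferred 1, 2 and 3) 10 were positive, 17 negative and the median was -0.26, so that the list's direction in the fit of all 10 libraries depended on these libraries. Rora was at 41.3, 36.57, 57.45, 11.6, 18.53 and 44.01 FPKM in transferred 1 to 6 and at 6.39, 22.48, 11.51 and 7.06 FPKM in endogenous 1 to 4 (1.52 ± 0.44). Bhlhe40, a transcription factor that sustains cytokine production, was at 36.78 through 160 to 202.86 FPKM against 41.73, 67.13, 13.12 and 43.37 FPKM (1.61 ± 0.48), and 5 of 6 transferred libraries were above all endogenous ones. Lgals3, which encodes galectin-3, was at 5.28 through 30.8 to 128.33 against 18.34, 2.83, 3.12 and 10.85 FPKM (1.49 ± 0.41). Cd44, the classic surface marker of antigen-experienced T cells, was at 142.23, 158.29, 97.78, 30.53, 79.46 and 173.72 FPKM in transferred 1 to 6 and at 67.83, 57.91, 26.6 and 70.62 FPKM in endogenous 1 to 4. Transferred 4 was again the only transferred library within the endogenous range, and the difference was 0.73 ± 0.34 (limma adjusted p = 0.479) with all libraries and 1.05 (limma adjusted p = 0.223) without it.

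Among cytotoxic and inhibitory genes, Gzmb, which encodes granzyme B, was at 31.8, 47.36, 56.31, 3.36, 34.47 and 51.26 FPKM in transferred 1 to 6 and at 14.43, 2.59, 3.28 and 13.51 FPKM in endogenous 1 to 4 (1.7 ± 0.52, limma adjusted p = 0.342). Of 12 genes of cytotoxic granules, 9 were positive (median 0.37), and Gzmb was the 1 member higher at an unadjusted p under 0.05. Of 14 inhibitory receptor genes, 9 were positive (median 0.11) and 3 passed the unadjusted p. These 3 were Cd160, Havcr2, which encodes TIM-3 (1.31 to 53.28 against 1.48 to 8.63 FPKM, 1.49 ± 0.59), and Tigit (67.75 to 475.91 against 39.04 to 191.53 FPKM, 1.03 ± 0.48). The low end of both ranges in transferred cells was transferred 4.

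Genes of the cell cycle and DNA replication were higher in transferred cells on average, but only with the 3 pools of 4 mice included. Of 44 tested, 39 had a positive difference, 13 were higher at an unadjusted p under 0.05 (background 2.69%), and 0 were lower at that p or called by limma. Their median was 0.72. With transferred 1 and transferred 2 averaged, 10 were higher at that p and the median was 0.61. Without the pools, 21 of 43 were positive and 22 negative, 0 were higher and 1 lower at that p, and the median was -0.01. Mki67, which encodes the proliferation marker Ki67, was at 64.13, 57.35, 50.34, 7.93, 19.57 and 17.61 FPKM in transferred 1 to 6 and at 9.28, 5.76, 7.5 and 19.88 FPKM in endogenous 1 to 4. Transferred 1, 2 and 3 lay above all endogenous libraries, while transferred 4, 5 and 6 lay within their range (1.35 ± 0.49, limma adjusted p = 0.393). Ube2c, which drives exit from mitosis, was at 46.7, 51.86, 45.7, 8.24, 27.93 and 18.63 FPKM and at 9.86, 5.28, 7.8 and 19.75 FPKM (1.32 ± 0.43). Bub1b, of the spindle checkpoint, was at 3.23 to 9.36 against 0.69 to 3.64 FPKM and had the smallest p of the list (1.23 ± 0.33, limma adjusted p = 0.31). Nusap1 (1.25 ± 0.42) and Hmmr (0.78 ± 0.28), both of the mitotic spindle, followed after Ube2c.

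The mean log2 level of the cell cycle list was 3.96, 3.83, 3.72, 2.4, 3.03 and 2.82 in transferred 1 to 6 and 3.13, 2.09, 2.3 and 2.89 in endogenous 1 to 4. The 3 highest levels were those of transferred 1 to 3, the pools of 4 mice. Without transferred 3 the median of the list was 0.32 with 4 genes higher at an unadjusted p under 0.05, and without transferred 4 it was 0.85 with 20. In lymph nodes only it was 0.62, with 39 of 44 positive. Pools and transferred libraries of draining nodes alone or non-draining nodes alone coincide in part, and their parts cannot be told apart.

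Cdkn1a, the cell cycle inhibitor p21 and a target of p53, was among the leading genes although it restrains division. It was at 81.88, 82.32, 81.83, 38.49, 93.78 and 43.5 FPKM in transferred 1 to 6 and at 17.73, 47.28, 13.64 and 5.15 FPKM in endogenous 1 to 4 (2.06 ± 0.46, limma adjusted p = 0.277). Endogenous 2, from spleen, was the only endogenous library within the transferred range. Of 21 genes of the p53 response, 15 were positive and 6 negative, with 4 higher and 2 lower at an unadjusted p under 0.05 (median 0.27). Phlda3, an inhibitor of AKT, was higher (1.15 ± 0.42), whereas Btg2 and Sesn1, a stress-induced regulator of TORC1 (5.86 to 30.95 against 20.75 to 34.62 FPKM, -1.06 ± 0.27), were lower. Members at an unadjusted p under 0.05 thus went in both directions, while 15 of 21 were positive, beside 3940 of all 10743 genes.

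Of 16 Th2 genes, 13 were positive, 4 were higher and 1 lower at an unadjusted p under 0.05, and the median was 0.57. The 4 were Ccr4, Il9, Il1rl1 and Il13. Il1rl1 was at 69.91, 71.64, 33.06, 2.62, 83.8 and 39.7 FPKM in transferred 1 to 6 and at 21.59, 6.85, 2.76 and 18.21 FPKM in endogenous 1 to 4 (1.38 ± 0.5, limma adjusted p = 0.393). Il13, an effector cytokine of Th2 cells, was at 90.74, 90.58, 12.05, 7.87, 697.87 and 249.93 FPKM and at 51.91, 6.8, 3.85 and 60.11 FPKM (1.37 ± 0.5). In both groups the TEST libraries held the higher Il13 values, and transferred 3 and 4 lay between the CONTROL and TEST libraries of endogenous cells. Without transferred 4, 3 of the 16, Ccr4, Il9 and Il1rl1, were called by limma.

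Receptors for cytokines and chemokines had no common direction. Il2ra, the high-affinity chain of the IL-2 receptor, was at 137.68 through 217 to 500.31 FPKM in transferred and at 95.2, 55.86, 187.24 and 107.44 FPKM in endogenous cells (1.08 ± 0.36). Ccr2, a receptor for inflammatory chemokines, was at 30.32, 39, 17.47, 1.7, 43.54 and 48.21 FPKM and at 7.17, 5.11, 1.57 and 17.79 FPKM (1.34 ± 0.48). The list of common gamma chain and homeostatic cytokine receptors had 8 positive and 10 negative of 18 (median -0.1), and that of chemokines and their receptors 14 positive and 7 negative of 21 (median 0.18). Rel, the NF-kB subunit c-Rel, had the smallest p of the T cell activation genes (65.81 to 154.3 against 32.54 to 102.08 FPKM, 0.82 ± 0.22). Foxp3, of regulatory T cells, was at 21.9 through 86.6 to 233.01 FPKM against 100.55, 80.81, 164.82 and 90.34 FPKM, the groups overlapping throughout (-0.28 ± 0.46, limma adjusted p = 0.867). The signs of Foxp3, Cd3e and Cd4 turned under other settings, among them removal of the ribosomal RNA genes (0.02, 0.15 and 0.04).

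The T cell receptor complex was uneven. Cd3d was at 42.04, 44.22, 63.04, 50.23, 52.21 and 55.08 FPKM in transferred 1 to 6 and at 229.26, 78.78, 77.4 and 122.98 FPKM in endogenous 1 to 4 without overlap (-1.22 ± 0.28, limma adjusted p = 0.277). Cd3g (68.84 to 168.83 against 109.58 to 281.78 FPKM, -1.01 ± 0.26) and Cd247, the zeta chain (110.14 to 187.84 against 188.38 to 332.87 FPKM, -0.59 ± 0.23), were lower too, whereas Cd3e (359.35 to 719.28 against 190.34 to 991.45 FPKM, -0.15 ± 0.4) and Cd4 (104.7 to 146.1 against 103.83 to 193.09 FPKM, -0.26 ± 0.18) overlapped. Of 18 genes of T cell identity, 15 were negative, beside 6803 of all 10743 genes, and 3 were lower at an unadjusted p under 0.05 (median -0.31).

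Genes of cytosolic ribosomal proteins, a set chosen after its values were seen, were lower in transferred cells in 72 of 75 cases, 62 of them at an unadjusted p under 0.05, with a median of -0.89 and 0 calls by limma. Rps28 was at 413.62, 521.58, 460.07, 259.46, 572.22 and 418.32 FPKM in transferred 1 to 6 and at 2074.46, 622.32, 609.34 and 1185.85 FPKM in endogenous 1 to 4 (-1.34 ± 0.29). The summed FPKM of the set was 37000 to 71800 in transferred libraries and 159000, 72800, 59200 and 110000 in endogenous 1 to 4, so that endogenous 1 and 4 were well above all transferred libraries, endogenous 2 was just above them and endogenous 3 lay among them. The median became -0.61 with 35 genes lower at that p without endogenous 1, -0.63 with 37 lower when each library was centered by transcript length, and -0.27 with 19 lower after quantile normalization. With transferred 1 and transferred 2 averaged, 53 genes were lower at that p. Of 27 respiratory chain genes, 24 were negative (median -0.33), led by Uqcrfs1 of complex III (16.9 to 28.55 against 22.59 to 75.32 FPKM, -0.81 ± 0.25). The median of the list was -0.14 without endogenous 1, and without the ribosomal RNA genes it was -0.03 with 11 positive and 16 negative.

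These are short transcripts, and the level of short transcripts varied between libraries. The median difference was -0.22 in the decile of tested genes with the shortest transcripts and 0 in the decile with the longest. In endogenous 1 the shortest decile stood at 0.5 and the longest at -0.05 relative to each gene's mean, in endogenous 4 at 0.34 and 0.06, and in transferred 4 at -0.34 and 0.42. The part of transcript length in the differences of single genes was not tested, but with each library centered by length Lbh was at -1.07, Cd3d at -1.02 and Cdkn1a at 2.25.

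**Figure D3:**
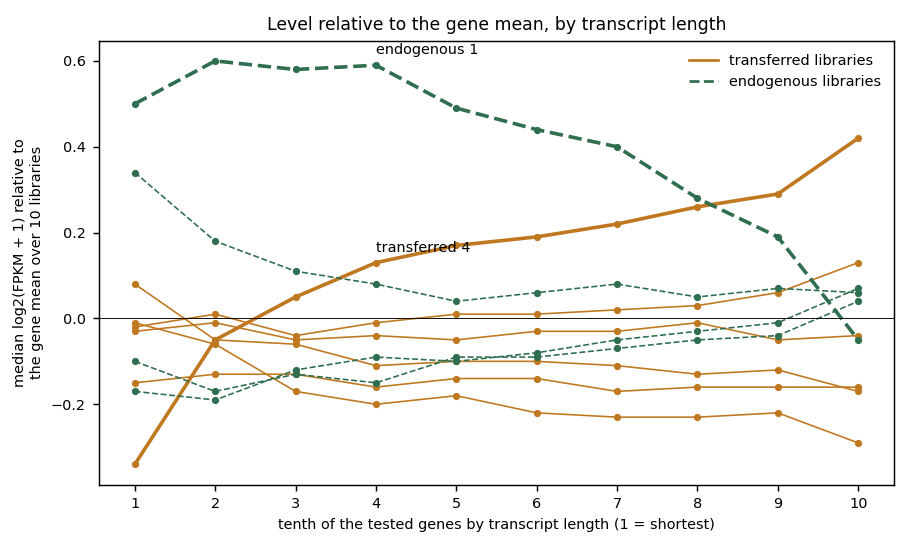
Median log2(FPKM + 1) relative to each gene's mean over the 10 libraries (vertical axis) in deciles of the tested genes by transcript length (horizontal axis, 1 = shortest), 1 line per library. Endogenous 1 falls from 0.5 in the shortest to -0.05 in the longest decile, and transferred 4 goes from -0.34 to 0.42.

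Further gene groups are given by their medians. Glycolysis genes were at -0.15, near the median of all genes, although Gapdh was at 679.33 to 1646.87 against 496.3 to 904.22 FPKM (0.72 ± 0.3). Cholesterol synthesis genes were negative in 15 of 19 cases (median -0.31), with 4 lower at an unadjusted p under 0.05. Type I interferon response genes were at -0.13 and genes of MHC and antigen processing at -0.18. Th1 genes were at 0.15, Th17 genes at 0.26, follicular helper genes at 0.03, regulatory T cell genes at 0.36 and genes of the BCL2 family at 0.18, and 0 members of any of these lists were called by limma. Taken within each label, the regulatory T cell list was at -0.29 in TEST (9 of 21 positive) and 0.37 in CONTROL (18 of 21). The follicular helper list was at -0.37 and 0.58. All genes were at -0.35 and 0.16. Cd74, the MHC class II invariant chain, was at 58.71 to 133.2 FPKM in all 6 transferred libraries and at 193.44, 44.12, 5.55 and 4.12 FPKM in endogenous 1 to 4. Beside it, the summed level of the list of 13 B cell genes was 82.7 to 196 FPKM in transferred and 10.4 to 380 FPKM in endogenous libraries, and Ms4a1 was at 0 in 5 libraries and at 1.88 FPKM at most, so that the part of B cell RNA was not tested.

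**Figure D4:**
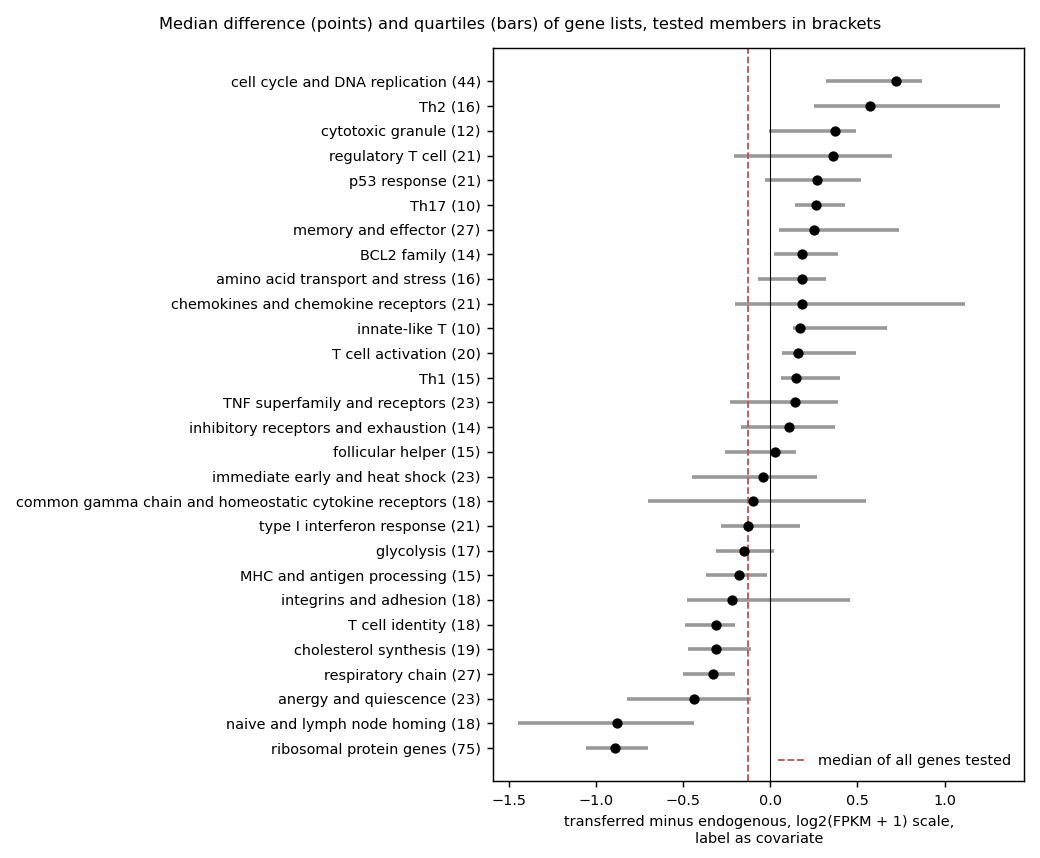
Median log2 difference, transferred minus endogenous with the label as covariate (points), and quartiles (bars) for the gene lists with 10 or more tested members (number in brackets), beside the median of all genes (dashed line, -0.13). The cell cycle list (0.72) and the naive and homing list (-0.88) lie at opposite ends, with the ribosomal protein genes at -0.89.

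The difference was then taken within each label, in a model with 4 group means. These contrasts share no library. Within TEST (4 transferred, 2 endogenous) 2 of 10743 genes (0.0186%) were called, both of which fell. These were Adk (-2.99 ± 0.39) and Txk (-2.59 ± 0.33), each with a limma adjusted p of 0.0499. Txk was at 4.76, 3.39, 3.23 and 5.94 FPKM in transferred 1, 2, 5 and 6 and at 31.65 and 29.16 FPKM in endogenous 1 and 4, whereas in CONTROL it was at 12.32 and 21.06 FPKM in transferred 3 and 4 and at 21.12 and 14.26 FPKM in endogenous 2 and 3. Both calls were near the threshold, and the count changed when 1 library was left out. It was 0 without transferred 1 (10640 genes tested) or transferred 2 (10650), and 2 without transferred 5 (10660) or transferred 6 (10605). Omission of any other library leaves 1 library in a group, and no count is given for those fits. At an unadjusted p under 0.05, 192 genes were higher and 2020 lower within TEST, and the median was -0.35. This imbalance depended on the scale: the counts were 605 and 639 with median-ratio scaling, 581 and 656 after quantile normalization, and 793 and 433 without the ribosomal RNA genes.

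Within CONTROL (2 against 2) 0 genes were called (0%), the smallest limma adjusted p was 1, 240 genes were higher and 38 lower at an unadjusted p under 0.05, and the median was 0.16. With median-ratio scaling the counts were 111 and 121. The difference between the 2 contrasts, the interaction of transfer and label, gave 0 calls (0%) with a smallest limma adjusted p of 0.484 and 31 and 1052 genes at an unadjusted p under 0.05, which became 193 and 181 with median-ratio scaling, 184 and 203 after quantile normalization, and 121 and 219 without the ribosomal RNA genes. The interaction and the contrast within CONTROL each gave 0 calls when transferred 1, 2, 5 or 6 was left out in turn. Fits that left 1 library in a group are not counted. The lower levels of the naive list were seen mainly within TEST, where 18 of 18 were negative with a median of -1.21, against 13 of 18 and -0.17 within CONTROL, a difference of the list that was not tested. The cell cycle list had medians of 0.46 within TEST and 0.88 within CONTROL, with 37 and 44 of 44 positive. Both lists stand beside medians over all genes of -0.35 within TEST and 0.16 within CONTROL. Of all 10743 genes, 2740 were positive within TEST and 7197 within CONTROL.

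Across genes, which are not independent replicates, the contrasts within the labels correlated weakly (Pearson r = 0.21, Spearman rho = 0.2), and 45.1% of genes had the same sign. Relative to the median of each contrast, 56.8% lay on the same side. At least 2-fold on the log2(FPKM + 1) scale, 65 genes were higher and 31 lower under both labels. Slc15a3 (2.92 within TEST and 2.14 within CONTROL), Klrg1 (2.14 and 1.72), Cdkn1a (2.78 and 1.11), Cxcr6 (2.34 and 1.25), Gzmb (1.47 and 2.01), Mki67 (1.25 and 1.5) and Cd160 (1.24 and 1.54) were among the former. Trib3 (-1.73 and -1.27), Akr7a5 (-1.51 and -1.21), Ndufa6 (-1.95 and -1.15) and Khdrbs3 (-2.1 and -1.02) were among the latter. Within CONTROL, the differences of Klrg1, Gzmb and Mki67 came mainly from transferred 3, at 12.93, 56.31 and 50.34 FPKM. For these genes transferred 4 was at 0.82, 3.36 and 7.93 FPKM. Endogenous 2 was at 0.95, 2.59 and 5.76 FPKM and endogenous 3 at 0.2, 3.28 and 7.5 FPKM. Cd160, by contrast, was at 7.7 and 8.75 FPKM in transferred 3 and 4, against 1.95 and 2.42 FPKM. Strain is not balanced between the groups, and some genes counted under both labels followed it. H2-L, lower, was at 357.98, 281.4 and 369.21 FPKM in the Balb/c libraries transferred 6, endogenous 3 and endogenous 4. It was at 1.43 FPKM at most in the others. Atp6v0c, higher, was at 7.18, 3.27 and 2.9 FPKM in the Balb/c libraries and at 52.29 FPKM or more in the others. The counts were not adjusted for strain. Adk (-2.99 and -0.67) was beyond 2-fold within TEST alone, and the interaction was called for none of these genes.

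**Figure D5:**
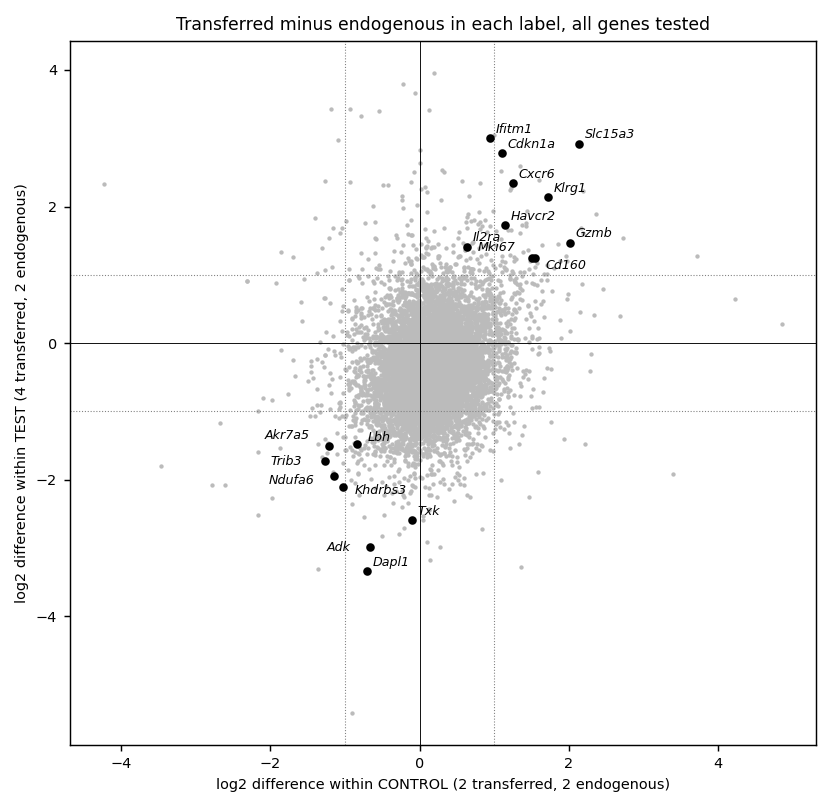
Log2 difference, transferred minus endogenous, within CONTROL (horizontal, 2 against 2 libraries) and within TEST (vertical, 4 against 2) for the 10743 genes tested, with named genes in black and dotted lines at 2-fold. Slc15a3, Klrg1, Cxcr6 and Cdkn1a lie beyond 2-fold on both axes, while Txk and Adk are at -2.59 and -2.99 within TEST and at -0.1 and -0.67 within CONTROL.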

How the data were processed

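RNA of sorted CD4+ T cells was sequenced from 6 transferred and 4 endogenous samples. Per the study's methods and the submitters' notes, the authors aligned reads to mm10 with Bowtie, and BWA and RSEM are also named; versions, strand and ribosomal RNA removal are not given in the sources used here, so genes that overlap on opposite strands cannot be told apart. The deposited values are FPKM, scaled by the authors by transcript length and mapped total, for 17457 genes, without read counts. Library groups came from the genotype labels, and p-values measure only the spread between these samples, 2 of which share their mice, and which may in part be technical.

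Genes that reached FPKM 1 in 4 libraries were fitted on log2(FPKM + 1) with limma 3.58.1 in R 4.3.3 (empirical Bayes with a mean trend, two-sided, Benjamini-Hochberg adjustment over all genes tested), with the TEST or CONTROL label as covariate, and with 4 group means for the contrasts within labels. The model was tested on simulated data. Gene IDs were matched to RefSeq GRCm38.p6 (mm10) for 99.7% of rows, and 24 symbols that were dates or blank were taken from it. The members, the 39 gene lists (652 of 671 entries found) and the tests were chosen with earlier results of these data known. Genes were named by rule. Since none was called, these were the 14 of smallest p in each direction whose mean in the higher group reached FPKM 2, then from every list the 4 members of smallest p, and the defining genes Cd3e, Cd4, Ccr7, Il7r, Cd44, Foxp3, Crlf2 and Mki67; not all are printed, and some items are not reported here. Alternatives varied the pseudocount, filter, scaling, prior, weights, covariates and libraries; those on transcript length and on pairs of changes, and the omission of libraries in the contrasts within labels, were chosen after seeing the data. Lists were described by counts and medians without a test.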

Additional observations from a re-analysis of the deposited data

Results flagged for a closer look

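In a group of 4 or 6 libraries, the highest or lowest was singled out where its gap to the next, on log2(FPKM + 1), took up more of the group's range than the 95% limit of Dixon's test (0.829 for 4 and 0.625 for 6). Chance does this in about 1 of 20 groups, and 14 of 152 were singled out over the genes named and 3 measures of the libraries. Transferred 4 was the library in 9 of the 14, but Casp1, St8sia6 and 1110032F04Rik were named because they were called without that library, so that their place here was fixed by the choice of genes and this number is not to be read against chance. It was the lowest transferred library for Ccr4 (31.93 FPKM, others 86.99 to 143.33), Klrg1 (0.82, others 10.2 to 18.05), Il1rl1 (2.62, others 33.06 to 83.8), Gzmb (3.36, others 31.8 to 56.31), Ccr2 (1.7, others 17.47 to 48.21), Uqcrfs1 (16.9, others 24.58 to 28.55) and Casp1 (12.2, others 31.09 to 46.26). It was the highest for St8sia6 (44.57, others 6.41 to 12.23) and 1110032F04Rik (5.98, others 0.85 to 1.85).

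Among the other transferred libraries, transferred 5 was highest for Akr7a5 (2.11 FPKM) and transferred 1 for 2410015M20Rik (19.75 FPKM). Among endogenous libraries, endogenous 1 was lowest for Pik3ip1 (16.53 FPKM) and highest for Casp1 (15.14 FPKM, others 12.01 to 12.12), and endogenous 3 was highest for Il7r (181.09 FPKM).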

How the results depend on the processing

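Among 32 other settings, lymph nodes only is the same fit as omission of endogenous 2. Implanted tumor transfers only is likewise the fit without transferred 6. Of the 32, counted with these repeats, 29 gave 0 genes called between transferred and endogenous cells. The exceptions were omission of transferred 4 (15), the same with TPM (14), and omission of transferred 4 and endogenous 1 (10). Leaving out 1 library at a time gave 0 to 15 calls, and 173 to 492 genes without overlap between the groups where all libraries gave 156. That number was 1197 of 11200 genes tested in C57BL/6 only, 412 of 10996 in lymph nodes only and 431 of 10773 without the pools of 4 mice. It was 3162 of 11001 in the TEST libraries alone and 1069 of 10770 without transferred 4 and endogenous 1. Without transferred 4 it was 543 of 10449 with transferred 1 and 2 averaged, and 462 of 11571 in TPM. Smaller groups overlap less by construction, so that these numbers are not results about the genes.

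Within TEST, the 2 calls became 26 with a pseudocount of 5 and 0 with a pseudocount of 0.1, with no filter on low values, in TPM, with median-ratio scaling, after quantile normalization and without the ribosomal RNA genes, and ranged from 0 to 1766 when 1 library was left out. With no filter, 2 genes were called within CONTROL and 1 for the interaction, and leaving out 1 library gave 0 to 1 and 0 to 618. Where an arm was left with 1 library, it was assumed to vary like the others. The cause of these changes was not tested.

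Pairs of a named gene and a setting numbered 2326, counted with the repeated fits. Of these, 2274 kept the call, 37 became called and 15 had the opposite sign, none of them called. Sizes moved in either direction. Without endogenous 1, Cd3d went from -1.22 to -0.85, Dapl1 from -2.21 to -1.57 and Cd74 from 2.04 to 3.36. Without transferred 4, Gzmb went from 1.7 to 2.27. Cd3e (-0.15) was at 0.01 in TPM, 0.25 after quantile normalization, 0.15 without the ribosomal RNA genes, 0.27 with a strain term, 0.46 in C57BL/6 only, 0.12 in TEST libraries alone, 0.03 centered by length, 0.07 without transferred 4 in TPM, and from -0.76 to 0.29 with 1 library left out. Cd4 (-0.26) was at 0.04 without the ribosomal RNA genes. Foxp3 (-0.28) was at 0.02 without the ribosomal RNA genes and with library weights, 0.2 without transferred 4 and endogenous 1, 0.1 without transferred 4 in TPM, and from -0.64 to 0.02 with 1 library left out. No paired analysis of transferred and endogenous cells was possible because the labels name no mouse that gave both. The depth is unknown, so that levels near 0 carry no limit of detection, and 6 against 4 libraries with different hosts, tissues and pools limit every comparison.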
